A study of Mus musculus with 15 samples.

Results

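Common dendritic cell progenitors (CDP) were compared with common myeloid progenitors (CMP), both sorted from the bone marrow of C57Bl/6 mice at steady state. The comparison rests on 4 of the 15 arrays of the series, 2 of CDP and 2 of CMP, titled WT1 and WT2 in each group, and on 18193 genes. All were wild type and untreated. Per the labels, both populations were sorted as propidium iodide-negative cells without lineage markers, IL7R, MHC class II, CD16/32 or CD11c, and with CD135, the receptor encoded by Flt3. The gates differed in CD117, the receptor encoded by Kit, which was intermediate on CDP and high on CMP. The other arrays of the same sorts, used here only for the spread and as a background, were 2 each of bone marrow precursors of classical dendritic cells (pre-cDC; low CD117, CD135+, CD11c+) and granulocyte-macrophage progenitors (GMP; high CD117, CD16/32+, CD135-). The labels give no age and do not say whether arrays came from separate animals or from pools, so the spread behind the p-values is that of these samples alone and may be technical.

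CMP are bone marrow cells that can give rise to granulocytes, monocytes, red cells and megakaryocytes. CDP are a later and more restricted step on the path to dendritic cells. They yield plasmacytoid dendritic cells and, through pre-cDC, the classical dendritic cells that take up antigen and present it to T cells on MHC molecules. The receptor FLT3 and its ligand drive this path, and the transcription factors PU.1 (Spi1) and IRF8 act early in it.

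Expression was read on Affymetrix 3' arrays, with 1 linear intensity for each probe set, and each gene is given by its brightest probe set. The array medians were 16.72 and 17.02 in CDP, against 16.93 and 17.33 in CMP. Across genes, log2 values correlated at 0.995 between the CDP arrays and 0.996 between the CMP arrays, against 0.980 to 0.982 between a CDP and a CMP array. Within each pair 6 genes were 2-fold apart. Differences below are CDP minus CMP on the scale log2(intensity + 32), with, after ±, the standard error (SE) of a limma fit to the 8 progenitor arrays, and a gene was called when its p-value, adjusted over all genes, was under 0.05.

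By this rule 2626 genes, 14.4% of those tested, were called, 1398 of them higher in CDP (7.68%) and 1228 lower (6.75%). The median difference over all genes was 0.0015. After quantile normalization of the arrays the calls were 1137 higher and 1604 lower. With genes at or below the array median of 17.01 left out, 1625 of 10395 genes were called higher and 1369 lower. These shares are larger than those over all genes. Most lists below hold mainly bright genes, so a count near these shares is no result about a list. At least 2-fold differences were found for 190 genes higher in CDP and 127 lower, and at least 4-fold differences for 21 and 23 genes. The 2 arrays of each group did not overlap in 9459 genes (52%), which include all 2626 called genes. A lack of overlap given below for a called gene therefore adds nothing to its call. Without the first CMP array 1608 genes were called, and without the second CMP array 1662.

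**Figure D1:**
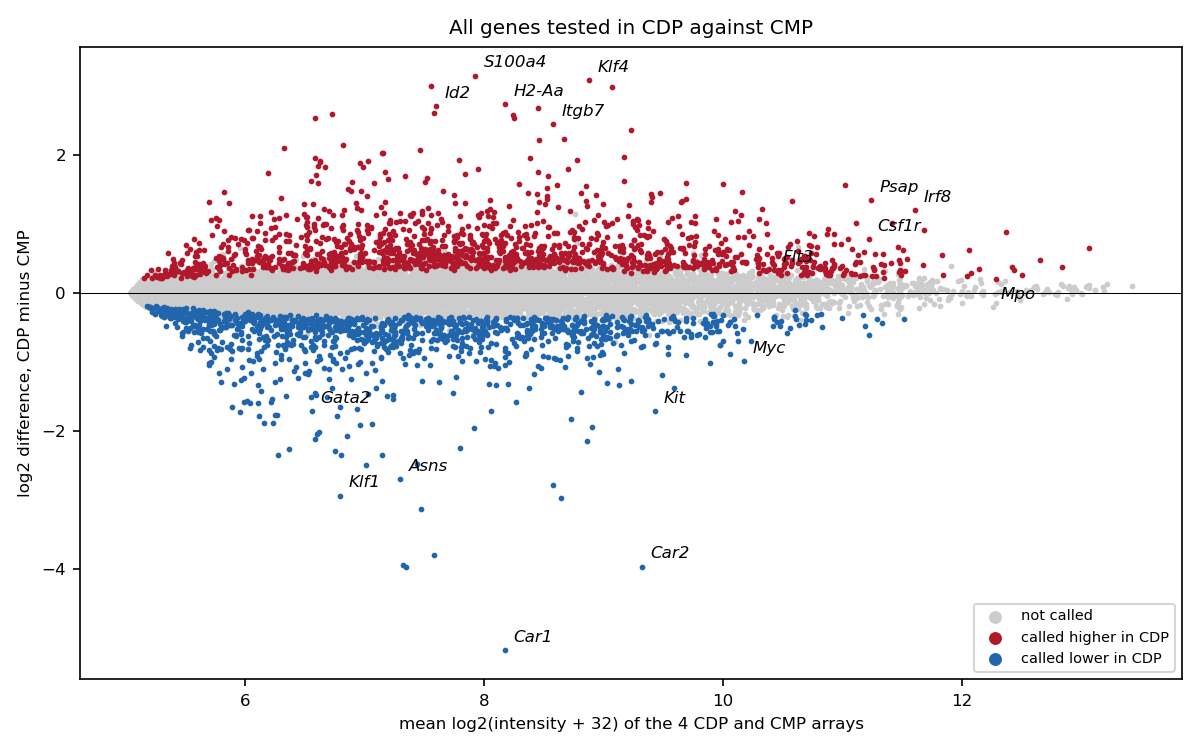
Log2 difference between CDP and CMP (vertical axis) against the mean log2(intensity + 32) of the 4 arrays (horizontal axis), 1 point per gene; red points are called higher in CDP, blue points lower, grey points not called. The falls reach further than the rises: Car1 lies at -5.17 and the highest rise, S100a4, at 3.14.

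The 4 genes set as markers of the populations were set by the direction of this same difference. Their values describe it and are no independent result. Klf4, a gene of a zinc finger factor active in monocytes and dendritic cells, read 1384 and 1297 in CDP, against 135 and 126 in CMP. Id2, whose product blocks DNA binding by basic helix-loop-helix factors, read 509 and 421 in CDP, against 48.1 and 40.2 in CMP. Kit read 368 and 335 in CDP, against 1229 and 1209.6 in CMP, and Car1, a carbonic anhydrase gene of red cell precursors, 10.8 and 21.99 in CDP, against 1895 and 1529.8 in CMP. For all 4 genes the arrays of one population lay far outside the range of the other. The differences were 3.08 ± 0.113 (adjusted p = 2.76e-08) for Klf4, 2.70 ± 0.118 (adjusted p = 3.3e-08) for Id2, -1.71 ± 0.11 (adjusted p = 7.21e-07) for Kit and -5.17 ± 0.224 (adjusted p = 3.3e-08) for Car1. Kit follows the gate as well.

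Of 8 genes of the sort markers, 6 were higher in CDP and Kit was lower. Flt3 was close to the threshold: it read 1408 and 1623 in CDP, against 1193 and 1204 in CMP (difference 0.33 ± 0.102, adjusted p = 0.0484), and the call was lost in 8 other settings. Genes of 3 proteins whose presence on the cell surface excluded a cell from both sorts had more mRNA in CDP. Il7r, the interleukin 7 receptor gene, read 109 and 94.8 in CDP, against 29.2 and 28.3 in CMP. Itgax, which encodes CD11c, read 153 and 124 in CDP, against 24.6 and 24.5 in CMP. H2-Ab1, a class II chain gene, read 730.1 and 511 in CDP, against 191 and 133 in CMP. For each of these 3 genes both CDP arrays were above both CMP arrays, with adjusted p of 6.18e-06, 1.48e-06 and 1.41e-05. Fcgr2b, 1 of the genes of CD16/32, was higher in CDP (difference 0.48 ± 0.105, adjusted p = 0.00726), a call lost without the second CDP array or the first CMP array (adjusted p = 0.0686 and 0.0732). Fcgr3, another of them, read 21.9 and 22.3 in CDP, against 35.3 and 35.95 in CMP, and was not called (difference -0.32 ± 0.104, adjusted p = 0.0564). The arrays measure sorted populations, so fewer cells of a type and less RNA per cell cannot be told apart for any gene here.

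The 15 largest rises were led by S100a4, a calcium-binding protein gene, with 789 and 607 in CDP, against 48.5 and 51.8 in CMP (difference 3.14 ± 0.143, adjusted p = 4.43e-08). Lgals3, which encodes galectin 3, read 603 and 415 in CDP, against 41.7 and 28.3 in CMP, and Ahnak, a gene of a very large scaffold protein, 1588 and 1369 in CDP, against 159.8 and 159.8 in CMP. In each of the 3 the lower CDP array was several times brighter than the brighter CMP array. The class II presentation genes H2-Aa (2.73) and Cd74 (2.68) and the calcium-binding S100a6 (2.58) followed. The remainder held Nfil3 (2.60), the pyrimidine breakdown enzyme gene Upb1 (2.59), the uroplakin gene Upk1b (2.53), the ribonuclease gene Rnase6 (2.53), the integrin gene Itgb7 (2.44), the cathepsin gene Ctsh (2.36) and Pld4 (2.22), an endolysosomal nuclease gene.

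The 15 largest falls held 6 genes of the red cell list: Car1, Car2 (-3.96), Ermap (-3.97), Aqp1 (-3.80), Klf1 (-2.93) and Blvrb (-2.48). Both metallothionein genes fell, Mt2 with 29.6 and 26.9 in CDP, against 649 and 374 in CMP (difference -3.12 ± 0.295, adjusted p = 1.48e-05) and Mt1 with 108 and 119 in CDP, against 1187 and 790.1 in CMP (difference -2.78 ± 0.16, adjusted p = 2.89e-07). Asns, the asparagine synthetase gene, read 28.6 and 31.4 in CDP, against 459 and 296 in CMP (difference -2.69 ± 0.195, adjusted p = 2.15e-06). The CDP arrays read close together for these 3 genes, and the first CMP array was the brighter of the pair in each. Others were the carboxylesterase gene Ces2g (-3.94), C1qtnf12 (-2.97), Bex4 (-2.50), the non-muscle myosin gene Myh10 (-2.35), the glutathione transferase gene Gstm5 (-2.34) and Septin8 (-2.34).

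**Figure D2:**
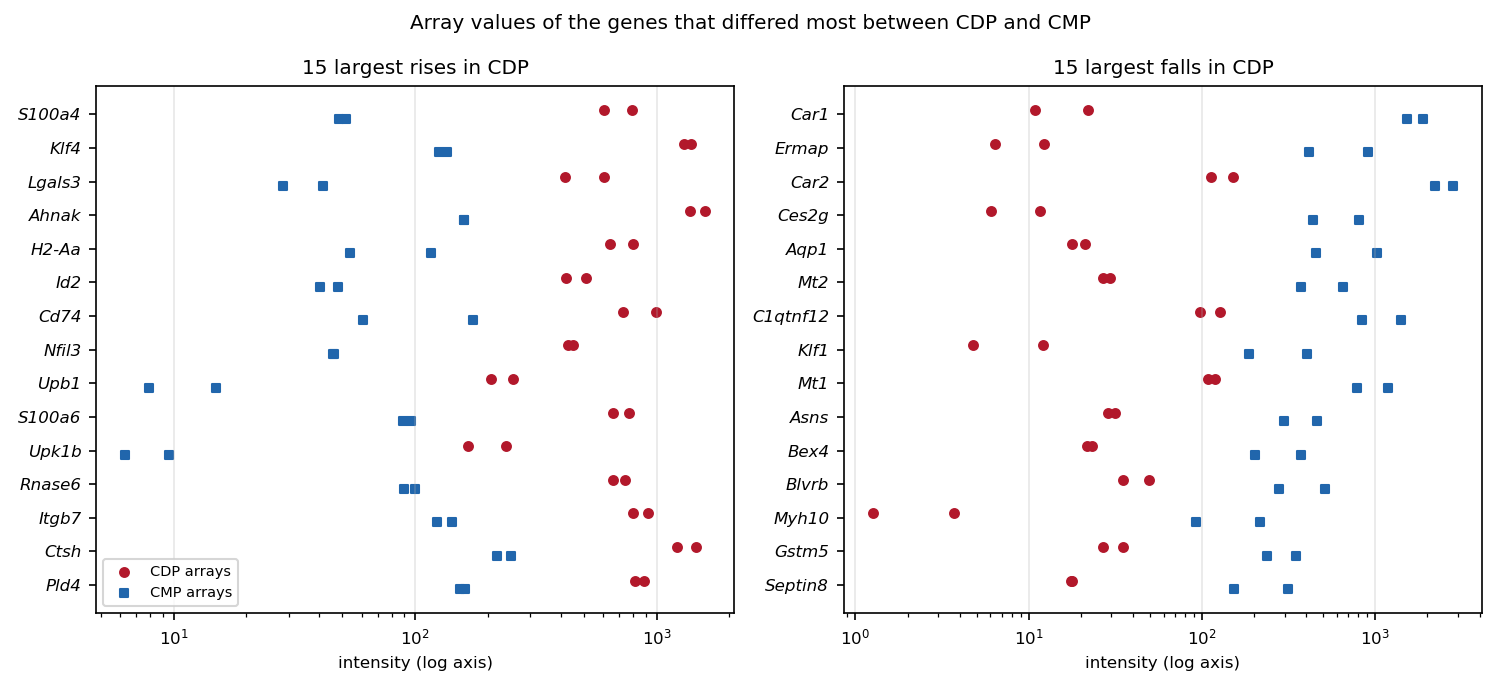
Intensity on a log axis of the 15 genes with the largest rises (left) and falls (right) in CDP, with 2 CDP arrays (red circles) and 2 CMP arrays (blue squares) per gene. Only genes in which the 2 populations do not overlap were eligible, so the lack of overlap here is no result. CMP values of Upb1 and Upk1b lie below the array median of 17.01, as do several CDP values on the right.

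Among 51 lineage transcription factor genes, 18 were higher in CDP and 7 lower, a median difference of 0.085 beside 0.0015 over all genes. Nfil3, a bZIP repressor gene needed for cDC1 and natural killer cells, read 449.6 and 429.9 in CDP, against 45.9 and 46.1 in CMP (difference 2.60 ± 0.112, adjusted p = 3.3e-08). Mycl, the member of the MYC family that dendritic cells use, read 226 and 186 in CDP, against 22.8 and 21.2 in CMP (difference 2.14 ± 0.109, adjusted p = 1.16e-07). Bach2, which encodes a repressor best known from lymphocytes, read 301 and 362 in CDP, against 102 and 127 in CMP (difference 1.31 ± 0.132, adjusted p = 2.71e-05). All 3 genes were far apart between the populations, with arrays of 1 population close together.

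The list also held factor genes of dendritic cell development. Irf8 read 4489.8 and 4936 in CDP, against 1957 and 2109.6 in CMP (difference 1.1995 ± 0.0758, adjusted p = 6.3e-07), and Spi1, the PU.1 gene, 341 and 379 in CDP, against 193 and 179.7 in CMP (difference 0.84 ± 0.108, adjusted p = 0.000185). Batf3, a partner of IRF8 in cDC1, read 48.9 and 39.1 in CDP, against 5.05 and 4.19 in CMP, where it was below the array median (difference 1.05 ± 0.0926, adjusted p = 8.78e-06). Irf5 (0.94), Bcl6 (0.71), Klf2 (0.85), Klf6 (1.10) and the plasmacytoid dendritic cell factor gene Tcf4 (0.56) were also called higher. Bcl11a, a factor gene of lymphoid and dendritic progenitors, differed by 0.44 ± 0.115 (adjusted p = 0.0198) but lost the call when any 1 of the 4 arrays was left out (adjusted p = 0.066 to 0.11). Zbtb46, a factor gene of committed classical dendritic cells, read 34.1 and 21.5 in CDP, against 31.9 and 16 in CMP, and was not called (difference 0.10 ± 0.146, adjusted p = 0.737). Cebpa, which drives granulocyte and monocyte fate, read 276 and 363 in CDP, against 344 and 412 in CMP, and was not called either (difference -0.23 ± 0.129, adjusted p = 0.314).

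The 7 factor genes lower in CDP were Gata1, Gata2, Gfi1, Gfi1b, Ikzf2, Myc and Mycn. Gata2, a stem and mast cell factor gene, read 17.3 and 23.3 in CDP, against 145 and 134 in CMP (difference -1.71 ± 0.133, adjusted p = 3.54e-06). Myc, which drives growth and ribosome production, read 683 and 911 in CDP, against 1475 and 1736 in CMP (difference -0.99 ± 0.141, adjusted p = 0.000393). The groups did not overlap for either gene. Gfi1, a repressor gene of the neutrophil path, read 49.6 and 51.3 in CDP, against 117 and 137 in CMP, and Ikzf2, which encodes Helios, 215 and 229 in CDP, against 369 and 389 in CMP. Mycn was dim throughout, at 2.96 and 1 in CDP, against 5.84 and 12.6 in CMP, and lost the call without the first CDP array, the second CDP array or the second CMP array (adjusted p = 0.0701 to 0.314) and in 4 other settings.

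**Figure D3:**
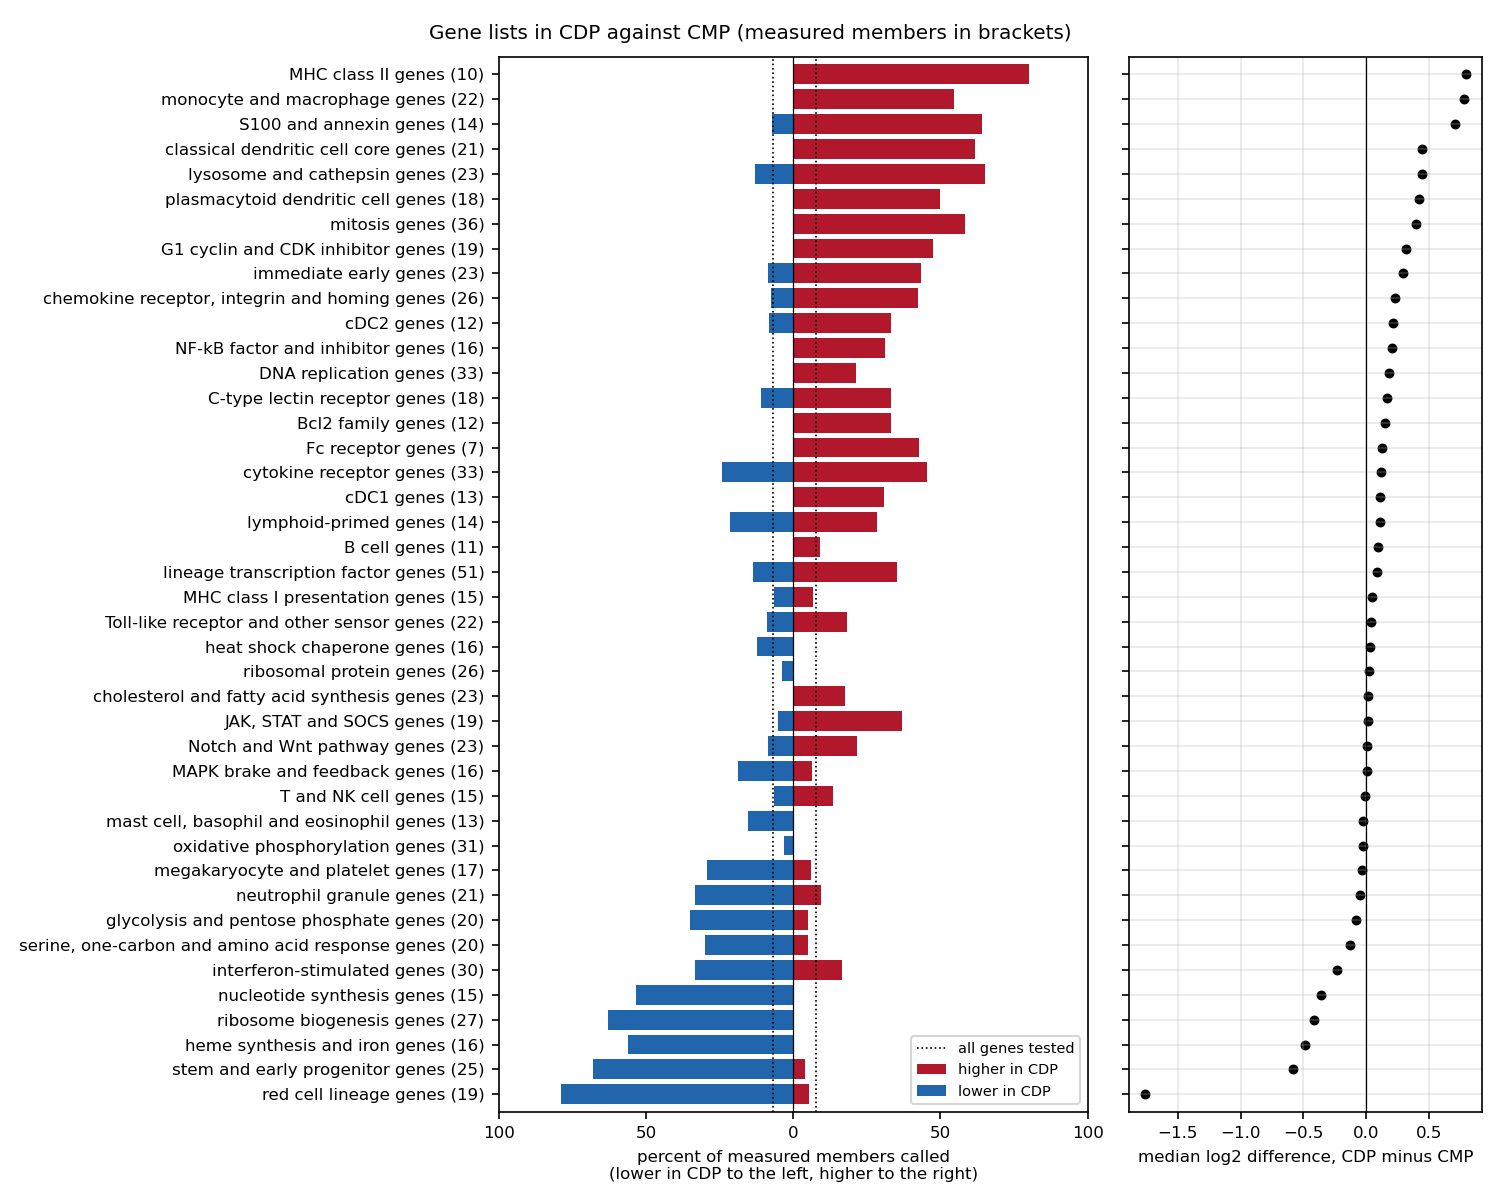
Left, percent of the measured members of each gene list that were called higher (red, to the right) or lower (blue, to the left) in CDP, with dotted lines at the shares over all genes tested (7.68% and 6.75%); right, the median log2 difference of each list. MHC class II genes lie at the top, with 8 of 10 members higher, and red cell lineage genes at the bottom, with 15 of 19 lower.

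Cytokine receptors set which growth factors a progenitor can answer. Of 33 receptor genes, 15 were higher and 8 lower in CDP; 8 were higher without the first CMP array, and 5 were lower without the second. Csf1r, the receptor gene for M-CSF, read 2910.5 and 3285 in CDP, against 1714 and 1865 in CMP (difference 0.78 ± 0.0949, adjusted p = 0.000115). Csf2rb2, the interleukin 3 specific beta chain of the mouse, read 199 and 154 in CDP, against 35.5 and 36.8 in CMP (difference 1.61 ± 0.119, adjusted p = 2.45e-06). Il6st, the gp130 gene shared by the interleukin 6 family, read 1655 and 1602 in CDP, against 712 and 686 in CMP (difference 1.18 ± 0.104, adjusted p = 8.43e-06). These receptors were higher on both CDP arrays than on either CMP array. The GM-CSF receptor chains Csf2ra (0.89) and Csf2rb (0.82) were called as well.

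The lower receptor genes included those of red cell, neutrophil and inflammatory signals. Epor, the erythropoietin receptor gene, read 4.51 and 7.37 in CDP, against 122 and 53.01 in CMP (difference -1.59 ± 0.254, adjusted p = 0.0009). Csf3r, the G-CSF receptor gene, read 85.05 and 115 in CDP, against 165 and 185 in CMP (difference -0.66 ± 0.124, adjusted p = 0.00296), and Ifngr1, a chain of the interferon gamma receptor, 489 and 525 in CDP, against 784 and 716 in CMP (difference -0.54 ± 0.0912, adjusted p = 0.00147). CDP and CMP arrays did not overlap in these 3 genes, although the CMP arrays read far apart for Epor. Il1r1 (-0.59), Tgfbr2 (-0.75), Il15ra (-0.37) and Il12rb1 (-0.22), which was close to the array median in CMP, made up the rest beside Kit. Of these, Il1r1 lost the call without the first CDP array or the second CMP array (adjusted p = 0.184 and 0.24), Tgfbr2 without the second CMP array (adjusted p = 0.0521) and Il12rb1 when any 1 of the 4 arrays was left out (adjusted p = 0.067 to 0.215). The 2 interferon alpha receptor genes were called higher, Ifnar1 at 0.52 and Ifnar2 at 0.49.

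Of 19 genes of JAK kinases, STAT factors and their brakes, 7 were higher in CDP and 1, Stat4, was lower (difference -0.36 ± 0.105, adjusted p = 0.037). Jak2, the kinase of the GM-CSF and erythropoietin receptors, read 626 and 569 in CDP, against 310.0 and 349.6 in CMP (difference 0.80 ± 0.0992, adjusted p = 0.000135). Sh2b3, which encodes the brake LNK, read 357 and 501 in CDP, against 188 and 213 in CMP, and Ptpn6, which encodes the inhibitory phosphatase SHP-1, 1362 and 1233 in CDP, against 689 and 669.8 in CMP. Both were higher on every CDP array, with adjusted p of 0.000348 and 2.25e-05. Stat3, which acts downstream of FLT3, differed by 0.55 ± 0.114 (adjusted p = 0.00532) and lost the call without the second CMP array (adjusted p = 0.0684). The SOCS genes Socs1 (-0.12), Socs2 (0.12), Socs3 (-0.17) and Cish (-0.065), which encode feedback inhibitors, were not called, and the median of the list was 0.012. The Stat4 call was lost without either CMP array and without the first CDP array.

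MHC class II molecules show peptides to CD4 T cells, and their genes are switched on together by the coactivator CIITA. Of 10 class II genes, 8 were higher in CDP and 0 lower, with a median difference of 0.794. H2-Aa, an alpha chain gene, read 796 and 641 in CDP, against 116 and 53.5 in CMP (difference 2.73 ± 0.197, adjusted p = 2.11e-06). Cd74, the invariant chain gene, read 998 and 729 in CDP, against 174 and 61.1 in CMP (difference 2.68 ± 0.263, adjusted p = 2.09e-05), and H2-Eb1, a beta chain gene, 182 and 128 in CDP, against 23.6 and 16.2 in CMP (difference 1.84 ± 0.146, adjusted p = 4.14e-06). The second CMP array was the lower of the CMP pair for all 3 genes, and both CMP arrays lay below both CDP arrays. H2-DMb2 (0.95), H2-DMa (0.63), H2-Oa (0.51) and Ciita (0.37) were also called. H2-Ob (0.055) and H2-Eb2 (-0.09) were not. Of 15 class I presentation genes 1, Tapbp, was higher (difference 0.50 ± 0.0913, adjusted p = 0.0024) and 1, Calr, was lower (difference -0.37 ± 0.0975, adjusted p = 0.0231), with a median of 0.044. The call of Calr was lost without the second array of either population, and 2 class I genes were lower without the first CDP array.

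Class II promoters carry a conserved CCAAT box that nuclear factor Y binds. Promoters were those of the RefSeq table for GRCm38.p6 (250 bases before to 50 bases after the start). A gene with several starts was counted when any of them held the motif. The letters CCAAT, on either strand, were found for 7 of the 7 class II genes with a promoter there, against 41.1% of all genes with one. H2-DMa also has a start without the motif. No motif searched here contains another. The motif was present whether the gene was called (5 of 5) or not (2 of 2). The promoters of H2-Aa (chr17:34287774-34288073, minus strand) and H2-Eb1 (chr17:34305617-34305916, plus strand) are shown as those of an alpha and a beta chain gene that were called higher; capitals mark CCAAT or its reverse complement ATTGG.
H2-Aa: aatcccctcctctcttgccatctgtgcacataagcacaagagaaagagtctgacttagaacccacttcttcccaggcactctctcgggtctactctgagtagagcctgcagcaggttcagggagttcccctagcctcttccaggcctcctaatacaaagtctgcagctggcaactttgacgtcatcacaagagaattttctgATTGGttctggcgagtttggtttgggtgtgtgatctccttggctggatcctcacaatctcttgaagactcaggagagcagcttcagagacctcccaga
H2-Eb1: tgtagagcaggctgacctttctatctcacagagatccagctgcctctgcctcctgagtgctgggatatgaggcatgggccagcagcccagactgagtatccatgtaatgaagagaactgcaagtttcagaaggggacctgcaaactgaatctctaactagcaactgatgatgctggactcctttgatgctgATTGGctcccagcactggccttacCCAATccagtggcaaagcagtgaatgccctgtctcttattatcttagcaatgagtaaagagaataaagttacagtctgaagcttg

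Lysosomal proteases prepare the peptides that class II molecules present. Of 23 lysosome and cathepsin genes, 15 were higher in CDP and 3 lower, with a median of 0.441. Ctsh read 1459.7 and 1219 in CDP, against 249 and 219 in CMP (difference 2.36 ± 0.131, adjusted p = 2.43e-07). Psap, which encodes the precursor of the saposins, read 3992 and 3653 in CDP, against 1577 and 1403 in CMP (difference 1.34 ± 0.0762, adjusted p = 2.67e-07), and Grn, the progranulin gene, 2487 and 2298 in CDP, against 879.6 and 983 in CMP (difference 1.33 ± 0.0842, adjusted p = 6.3e-07). The last 2 were already bright in CMP, and the CDP arrays were higher by more than the spread of either pair. Lgmn, an asparaginyl protease gene, read 100.5 and 62.7 in CDP, against 16.5 and 19.2 in CMP. Ctss (0.92), Ctsb (0.85) and the cystatin gene Cst3 (1.01) were also called. The members lower in CDP were Ctsl (-0.40), Tpp1 (-0.41) and Gla (-0.43), and the number lower was 0 without the first CMP array or the second CDP array and 1 without the first CDP array.

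Genes of mature myeloid cells were compared by cell type. Of 21 classical dendritic cell core genes, 13 were higher in CDP and 0 lower (median 0.444). Kmo, a tryptophan breakdown enzyme gene, read 360.0 and 304 in CDP, against 50.5 and 59 in CMP (difference 2.07 ± 0.117, adjusted p = 2.67e-07), and Slamf7, 49.8 and 39.4 in CDP, against 7.72 and 6.14 in CMP (difference 0.97 ± 0.124, adjusted p = 0.000172). Slamf7 was below the array median in CMP, and Kmo was above it in both populations. Dpp4 (0.86), Ccr7 (0.89) and Btla (0.64) were called too. The summed intensity of the list was 4873 and 4976 in CDP, against 3038 and 3139 in CMP. Itgax and Flt3, genes of sort markers, are members of the list.

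Of 13 cDC1 genes 4 were higher and 0 lower (median 0.112): Irf8, Batf3, Wdfy4, needed for cross-presentation (difference 0.58 ± 0.101, adjusted p = 0.00176), and Naaa, an amidase gene (difference 1.08 ± 0.132, adjusted p = 0.000116). Of 12 cDC2 genes 4 were higher (median 0.217), among them Sirpa, with 407 and 398 in CDP, against 201 and 235 in CMP, and Clec10a, with 193 and 165 in CDP, against 53.1 and 43.03 in CMP. For these genes both CDP arrays were above both CMP arrays. Ltb, a lymphotoxin gene, was the 1 cDC2 member lower in CDP (difference -0.64 ± 0.159, adjusted p = 0.0158), and it lost the call without the second CMP array or the first CDP array. Xcr1, a marker gene of differentiated cDC1, was dim, at 4.28 and 7.46 in CDP, against 7.86 and 6.89 in CMP. Cd209a, a cDC2 member, was called higher, with 36.1 and 26.4 in CDP, against 7.40 and 5.34 in CMP (difference 0.72 ± 0.11, adjusted p = 0.000669). In the plasmacytoid dendritic cell list 9 of 18 members were higher and 0 lower (median 0.422). Siglech, a receptor gene that marks these cells in mice, read 54.6 and 40.7 in CDP, against 6.84 and 5.49 in CMP (difference 1.06 ± 0.107, adjusted p = 2.83e-05). Cox6a2 (1.07), the adaptor gene Blnk (1.03), Spib (0.77) and Ly6d (0.71) were also higher, while the sensor genes Tlr7 (-0.094) and Tlr9 (-0.077) were not called. This list summed to 3452 and 3282 in CDP, against 2074 and 2088 in CMP.

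Of 22 monocyte and macrophage genes 12 were higher in CDP and 0 lower, with a median of 0.777. Mpeg1, a pore-forming protein gene of macrophages, read 3458 and 3622 in CDP, against 1185 and 1165 in CMP (difference 1.56 ± 0.105, adjusted p = 1.1e-06). Cx3cr1, the fractalkine receptor gene, read 655 and 601 in CDP, against 146 and 131 in CMP (difference 1.95 ± 0.114, adjusted p = 3.08e-07), and Cybb, an NADPH oxidase subunit gene, 161 and 170.3 in CDP, against 40.2 and 38.1 in CMP (difference 1.48 ± 0.115, adjusted p = 3.61e-06). For each, the CDP arrays were well above the CMP arrays. F13a1 (0.91), Ly86 (0.85), Ms4a6c (0.77) and Fn1 (0.90) were also called. Lyz2 (-0.29), Itgam (-0.0049), Adgre1 (-0.012) and the dim Cd14 (0.24) were not. The summed level of the list was 25561 and 26616 in CDP, against 14208 and 14313 in CMP; what part cells already on these paths have in the sum was not tested.

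Of 26 genes of chemokine receptors, integrins and homing molecules, 11 were higher in CDP and 2 lower. Itgb7, the beta 7 integrin chain used for homing to the gut, read 924 and 799 in CDP, against 142 and 123 in CMP (difference 2.44 ± 0.109, adjusted p = 3.98e-08). Itgb2, the shared chain of the leukocyte integrins, read 252 and 204 in CDP, against 48.6 and 53.5 in CMP (difference 1.64 ± 0.129, adjusted p = 3.89e-06). The partner chains did not move alike: Itgal was higher (0.44), Itgam was at -0.0049 and Itga4 at 0.21, neither called. Ccr2, which guides monocytes out of the marrow, read 1208 and 1086 in CDP, against 432 and 368 in CMP (difference 1.45 ± 0.133, adjusted p = 1.22e-05). S1pr3 (1.26), the selectin ligand gene Selplg (1.21) and Cxcr4 (0.82) were also higher. Cxcr2, the neutrophil chemokine receptor gene (difference -0.56 ± 0.0791, adjusted p = 0.000394), and Itga2b, the platelet integrin gene (difference -0.43 ± 0.115, adjusted p = 0.0234), were lower, and 1 of the 2 was called without either CMP array or the second CDP array.

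Of 14 genes of the calcium-binding S100 and annexin families 9 were higher in CDP and 1 lower, with a median of 0.706. S100a6 read 767 and 659 in CDP, against 88.9 and 95.97 in CMP, Anxa2 1354 and 1124 in CDP, against 459 and 498 in CMP, and Anxa6 289 and 231 in CDP, against 61.5 and 54.9 in CMP. The arrays did not overlap for these genes, with adjusted p of 3.3e-08, 5.49e-06 and 6.94e-06. Anxa4 was the member that fell (difference -0.57 ± 0.134, adjusted p = 0.012), a call lost without the second CMP array or the first CDP array. S100a8 and S100a9, whose products fill the cytoplasm of neutrophils, were called higher at low intensity. S100a8 read 125 and 71.8 in CDP, against 25.5 and 43.5 in CMP (difference 0.96 ± 0.227, adjusted p = 0.0122) and S100a9 91.5 and 58.9 in CDP, against 14.4 and 32.7 in CMP (difference 0.95 ± 0.246, adjusted p = 0.02). The first CDP array was the highest for both, and neither was called without the first CMP array or without the first CDP array.

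Of 22 Toll-like receptor and other sensor genes, 4 were higher and 2 lower. The number lower is near the share over all genes (6.75%). Unc93b1, whose product carries nucleic acid-sensing Toll-like receptors to endosomes, read 708 and 689 in CDP, against 268 and 252 in CMP (difference 1.32 ± 0.111, adjusted p = 6.18e-06). Cd180 (difference 0.92 ± 0.116, adjusted p = 0.000151) and Tlr1 (difference 0.76 ± 0.122, adjusted p = 0.000889), both receptors at the cell surface, were also higher. The lower members encode cytosolic RNA sensors: Ifih1 read 67.01 and 62.1 in CDP, against 116 and 107 in CMP (difference -0.57 ± 0.116, adjusted p = 0.00475) and Ddx58, at low intensity, 14.2 and 11.3 in CDP, against 25.1 and 34.8 in CMP (difference -0.47 ± 0.0942, adjusted p = 0.00461), a call lost without the second CMP array (adjusted p = 0.0597). Of 18 C-type lectin receptor genes 6 were higher, among them Klrd1 with 244 and 267 in CDP, against 36.5 and 40.7 in CMP and Clec7a, the dectin 1 gene, with 314 and 279 in CDP, against 141 and 102 in CMP. Clec4d (difference -0.96 ± 0.115, adjusted p = 0.0001) and Clec4e (difference -0.81 ± 0.11, adjusted p = 0.000282), paired receptors for mycobacterial lipids, were lower. Of 7 Fc receptor genes 3 were higher, with Fcer1g, the shared signalling chain, at 2011 and 1737 in CDP, against 631 and 686 in CMP (difference 1.46 ± 0.103, adjusted p = 1.73e-06) and Fcgrt, the neonatal Fc receptor gene, at 0.60 ± 0.111 (adjusted p = 0.00258). Of 16 NF-kB genes 5 were higher and 0 lower, including the inhibitor genes Nfkbia (difference 0.46 ± 0.0824, adjusted p = 0.00218) and Nfkbie (difference 0.83 ± 0.125, adjusted p = 0.000578) and the deubiquitinase gene Cyld (difference 0.43 ± 0.107, adjusted p = 0.0168), which lost the call without the second CDP array, the first CMP array or the second CMP array (adjusted p = 0.0751 to 0.114). That count was 2 without the first CMP array and 3 without either the second CMP or the second CDP array.

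Interferon-stimulated genes did not move together. Of 30 measured, 5 were higher in CDP and 10 were lower, with a median of -0.231. Bst2, which encodes tetherin and is abundant on plasmacytoid dendritic cells, read 927 and 736 in CDP, against 398 and 403 in CMP (difference 0.99 ± 0.117, adjusted p = 9.38e-05). Ifi27l2a read 699 and 458 in CDP, against 216 and 176 in CMP (difference 1.40 ± 0.165, adjusted p = 9.18e-05), and Mx1, an antiviral GTPase gene, 107 and 96.2 in CDP, against 37.9 and 35.8 in CMP (difference 0.96 ± 0.108, adjusted p = 6.47e-05). Trim30a (1.03) and Stat2 (0.54) were the other members higher. In these 5 genes both CDP arrays were above both CMP arrays.

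Lower members included antiviral effectors at high and low intensity. Ifitm1, an inhibitor of viral entry, read 481 and 406 in CDP, against 1068 and 1039.8 in CMP (difference -1.20 ± 0.123, adjusted p = 3.18e-05), and Isg20, an exonuclease gene, 17 and 20.9 in CDP, against 107 and 72.4 in CMP (difference -1.24 ± 0.14, adjusted p = 6.47e-05). Ifitm2 (-0.35), Ifitm3 (-0.40), Xaf1 (-0.61), Oasl2 (-0.74), Gbp2 (-0.58), Rsad2 (-0.41) and Ifit1 (-0.40) were also called lower, besides Ifih1. The factor genes Irf7 (0.082) and Irf9 (0.21) were not called.

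The interferon-stimulated response element was searched on both strands as GAAA, any 2 bases and GAAA again. It was found in a promoter of 16 of 25 genes of the list, against 4.0% of all genes with a promoter. It was in the promoters of 3 of 3 members higher in CDP that had a matched promoter, 6 of 10 lower and 7 of 12 not called. The promoters of Bst2 (chr8:71537423-71537722, minus strand), which was higher, and Ifit1 (chr19:34640639-34640938, plus strand), which was lower, are shown as members of opposite direction that both hold the motif; capitals mark it or its reverse complement (TTTC, any 2 bases, TTTC), and the 2 matches in Bst2 overlap each other.
Bst2: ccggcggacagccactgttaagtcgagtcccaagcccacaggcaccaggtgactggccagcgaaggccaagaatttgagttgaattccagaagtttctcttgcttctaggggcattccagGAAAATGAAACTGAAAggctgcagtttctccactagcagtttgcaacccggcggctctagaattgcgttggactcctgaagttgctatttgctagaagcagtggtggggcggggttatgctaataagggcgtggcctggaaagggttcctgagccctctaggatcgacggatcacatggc
Ifit1: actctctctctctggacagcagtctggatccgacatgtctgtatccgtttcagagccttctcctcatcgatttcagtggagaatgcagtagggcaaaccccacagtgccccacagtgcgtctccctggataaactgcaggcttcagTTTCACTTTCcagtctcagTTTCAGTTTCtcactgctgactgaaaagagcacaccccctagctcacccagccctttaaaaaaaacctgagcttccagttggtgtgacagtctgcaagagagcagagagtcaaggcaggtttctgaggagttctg

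Cell cycle genes were higher in CDP or not called, and none was lower. Of 36 mitosis genes 21 were higher, with a median of 0.393. Kif23, a kinesin gene of the midzone where dividing cells part, read 1597 and 1684 in CDP, against 721 and 755 in CMP (difference 1.12 ± 0.0943, adjusted p = 6.18e-06). Racgap1, its partner in the centralspindlin complex, read 708 and 528 in CDP, against 333 and 355 in CMP (difference 0.78 ± 0.142, adjusted p = 0.00235), and the kinetochore motor gene Cenpe 794 and 765 in CDP, against 489 and 446 in CMP (difference 0.70 ± 0.118, adjusted p = 0.00133). The spindle bundling gene Prc1 differed by 0.66 ± 0.139 (adjusted p = 0.006) and lost the call without the first CDP array or the second CMP array (adjusted p = 0.056 and 0.0662). The proliferation marker gene Mki67 (0.55) and Top2a (0.40) were called too, while Cdk1 (0.12) and Ccna2 (0.22) were not. The count of 21 was 13 without the first CMP array, 4 without the second, 6 without the first CDP array and 12 without the second.

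Of 33 DNA replication genes 7 were higher and 0 lower (median 0.179), and without either CMP array the count was 3. With dim genes left out 7 of 33 were again higher, a share little above that over all genes then (1625 of 10395). Tk1, the thymidine kinase gene, read 1014 and 923 in CDP, against 651 and 630.4 in CMP (difference 0.57 ± 0.101, adjusted p = 0.00192), and Rrm2, a ribonucleotide reductase subunit gene, 1846 and 1584 in CDP, against 1235 and 1167 in CMP (difference 0.50 ± 0.099, adjusted p = 0.00404). E2f1 (difference 0.55 ± 0.12, adjusted p = 0.00719) and Cdc45 (difference 0.57 ± 0.114, adjusted p = 0.00443) were called as well; E2f1 lost the call without the first CMP array (adjusted p = 0.0882) and Cdc45 without the second CMP array (adjusted p = 0.059). The 7 helicase and loader genes Mcm2 to Mcm7 and Mcm10 lay between 0.10 (Mcm6) and 0.19 (Mcm10), with none called.

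Many mitosis promoters hold the cell cycle genes homology region, searched here as TTTGAA on both strands. It was found in a promoter of 24 of 31 genes of the mitosis list, 77.4%, against 20.2% of all genes with a promoter. The share was 15 of 19 in members higher in CDP and 9 of 12 in those not called. The E2F motif GGCGGGAA was in a promoter of 6 of 28 replication genes, 21.4%, against 2.5% of all genes with a promoter. Among genes on the array with a promoter the share was 3.8%. The E2F motif was found for 1 of 7 members higher in CDP and 5 of 21 not called. Promoters of Kif23 (chr9:61946750-61947049, minus strand) and Racgap1 (chr15:99651607-99651906, minus strand) are shown as the 2 mitosis genes that rose most; capitals mark TTTGAA.
Kif23: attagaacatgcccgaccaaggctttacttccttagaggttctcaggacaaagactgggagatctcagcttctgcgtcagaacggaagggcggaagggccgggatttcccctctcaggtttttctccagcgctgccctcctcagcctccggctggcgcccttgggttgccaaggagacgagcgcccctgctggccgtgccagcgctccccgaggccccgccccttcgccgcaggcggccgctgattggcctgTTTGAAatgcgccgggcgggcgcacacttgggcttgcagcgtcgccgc
Racgap1: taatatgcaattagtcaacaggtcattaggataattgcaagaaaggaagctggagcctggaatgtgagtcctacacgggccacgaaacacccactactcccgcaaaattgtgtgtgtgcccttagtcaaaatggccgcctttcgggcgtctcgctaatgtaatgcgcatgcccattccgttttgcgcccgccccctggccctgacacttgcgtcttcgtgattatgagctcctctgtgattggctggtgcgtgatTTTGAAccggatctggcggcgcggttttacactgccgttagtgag

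Of 19 genes that control entry into the cycle, 9 were higher in CDP and 0 lower (median 0.319). The D cyclins open the cycle: Ccnd3 read 1143 and 989 in CDP, against 502 and 298 in CMP (difference 1.38 ± 0.168, adjusted p = 0.000114) and Ccnd1 846 and 707 in CDP, against 278 and 443 in CMP (difference 1.07 ± 0.169, adjusted p = 0.00082), with the CMP arrays apart in opposite directions for these 2 genes. Ccnd2 was at 0.38. Inhibitor genes of cyclin-dependent kinases were also called higher: Cdkn2d read 386 and 358 in CDP, against 145 and 141 in CMP (difference 1.21 ± 0.0994, adjusted p = 5.49e-06), Cdkn2c was at 1.05, Cdkn1b at 0.47 and Cdkn1a at 0.57. Btg1, an antiproliferative gene, read 1334 and 1161 in CDP, against 605 and 518 in CMP (difference 1.11 ± 0.107, adjusted p = 1.8e-05). The kinase gene Cdk6 read 3221 and 3718 in CDP, against 3099 and 3253 in CMP, and was not called (difference 0.12 ± 0.0867, adjusted p = 0.434). Of its 3 probe sets, each tested on its own, 1 was called lower in CDP and 0 higher.

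Genes for making ribosomes were lower in CDP, while few of those of the ribosome itself were called. Of 27 ribosome biogenesis genes 17 were lower and 0 higher, with a median of -0.412. Gnl3, the nucleostemin gene, read 687 and 1034 in CDP, against 1334 and 1451 in CMP (difference -0.70 ± 0.153, adjusted p = 0.00731). Polr1b, a subunit gene of RNA polymerase I, read 64.02 and 91.8 in CDP, against 141 and 140.0 in CMP (difference -0.66 ± 0.158, adjusted p = 0.0128), and Rrs1, a ribosome assembly gene, 621 and 623 in CDP, against 1004 and 974 in CMP (difference -0.64 ± 0.0922, adjusted p = 0.000421). The CMP arrays were higher than the CDP arrays in these genes, the first CDP array being the lower of its pair for Gnl3 and Polr1b. Gnl3 lost the call without the first CDP array or the second CMP array (adjusted p = 0.065 and 0.0759) and Polr1b without the first CDP array, the first CMP array or the second CMP array (adjusted p = 0.075 to 0.123). Ncl (-0.38), Ddx21 (-0.57) and Dkc1 (-0.46) were also called. The count was 10 without the first CMP array or the first CDP array and 8 without the second CMP array. Of 26 ribosomal protein genes 1, Rpl14, was lower (difference -0.65 ± 0.111, adjusted p = 0.00146), and the median was 0.019. The E-box CACGTG holds the letters that MYC and its partner MAX bind. It was in a promoter of 6 of 23 ribosome biogenesis genes, 26.1%, against 8.1% of all genes with a promoter. Among genes on the array with a promoter the share was 10.2%. The E-box was found for 5 of 16 members lower in CDP and 1 of 7 not called. Whether MYC acts on these genes was not tested.

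Of 15 genes of purine and pyrimidine synthesis 8 were lower and 0 higher (median -0.357), a count of 4 without the first CMP array and 5 without the second or without the second CDP array. Ppat, the first committed enzyme of purine synthesis, read 423 and 345 in CDP, against 606 and 592 in CMP (difference -0.61 ± 0.118, adjusted p = 0.00361), and Cad, which starts pyrimidine synthesis, 250.3 and 311 in CDP, against 473 and 394 in CMP (difference -0.58 ± 0.135, adjusted p = 0.0116), a call lost without the first CDP array or the first CMP array (adjusted p = 0.11 and 0.128). Of 20 genes of serine, one-carbon and amino acid response, 6 were lower and 1, Mthfd2, was higher (difference 0.45 ± 0.123, adjusted p = 0.026). Mthfd1, the cytosolic folate enzyme gene, read 345 and 353 in CDP, against 842 and 729 in CMP (difference -1.10 ± 0.13, adjusted p = 9.53e-05), and the amino acid transporter gene Slc7a5 238 and 224 in CDP, against 377 and 391 in CMP (difference -0.66 ± 0.107, adjusted p = 0.000972). Without the first CDP array 3 were lower, and Mthfd2 was not called when any 1 of the 4 arrays was left out. The stress factor gene Atf4 (0.20) and its targets Chac1 (-0.14) and Trib3 (-0.13), both dim, were not called beside the fall of Asns.

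Of 20 glycolysis and pentose phosphate genes 7 were lower and 1, Pfkp, was higher (difference 0.48 ± 0.107, adjusted p = 0.00792). Leaving out any 1 of the 4 arrays gave 3 lower, and 2 were higher without the second CDP array but 0 without the first array of either population. Hk1, a hexokinase gene, read 359 and 304 in CDP, against 719 and 472 in CMP (difference -0.76 ± 0.169, adjusted p = 0.00812) and lost the call without the second CDP array or the first CMP array (adjusted p = 0.0825 and 0.107). Pfkm, another phosphofructokinase gene, read 61.05 and 66.3 in CDP, against 124 and 111 in CMP (difference -0.64 ± 0.118, adjusted p = 0.00235). Bright later steps such as Ldha (-0.076), Pkm (0.052) and Pgk1 (-0.14) were not called. Of 31 oxidative phosphorylation genes 1, Sdhd, was lower (difference -0.48 ± 0.107, adjusted p = 0.00807), with a median of -0.027, and 7 were lower after quantile normalization and 0 without the first CMP or the second CDP array. Of 23 cholesterol and fatty acid synthesis genes 4 were higher and 0 lower, with a median of 0.018. With dim genes left out 4 of 22 were higher, near the share over all genes then (1625 of 10395), so the number is no result about the list. The 4 were Fdps at 0.60 ± 0.107 (adjusted p = 0.0021), Cyp51 at 0.57 ± 0.12 (adjusted p = 0.006), Insig1 at 0.51 ± 0.133 (adjusted p = 0.0212) and Sc5d at 0.42 ± 0.117 (adjusted p = 0.028). Cyp51 lost the call without the first CMP array (adjusted p = 0.0777), Insig1 without the first CDP array, the second CDP array or the second CMP array (adjusted p = 0.0889 to 0.214) and Sc5d without the first CDP array, the first CMP array or the second CMP array (adjusted p = 0.106 to 0.199). That count was 2 without either CMP array or the first CDP array.

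Stem and early progenitor genes were lower in CDP. Of 25, 17 were lower and 1 higher, with a median of -0.583. Hlf, a stem cell factor gene, read 16.8 and 16.8 in CDP, against 112 and 239 in CMP (difference -2.02 ± 0.205, adjusted p = 2.81e-05). Angpt1, the angiopoietin 1 gene, read 159 and 279 in CDP, against 800.2 and 1032 in CMP (difference -1.95 ± 0.199, adjusted p = 2.84e-05), and Adgrl4, an adhesion receptor gene, 173 and 216 in CDP, against 687 and 857 in CMP (difference -1.83 ± 0.13, adjusted p = 1.79e-06). Each was higher on both CMP arrays, with the second CMP array the brighter. Tal1 (-1.58), Muc13 (-1.47), Meis1 (-0.78), Hoxa9 (-0.64) and Erg (-0.74) were lower as well. Cd34, a surface marker of progenitors, read 1551 and 1456 in CDP, against 2045 and 2219 in CMP (difference -0.49 ± 0.117, adjusted p = 0.0118), and lost the call without the second CDP array or the second CMP array (adjusted p = 0.0888 and 0.109). Sox4 (0.15) and Myb (-0.16), both bright, were not called, and Cd93 was the 1 member higher (difference 0.29 ± 0.0865, adjusted p = 0.0417), a call lost when any 1 of the 4 arrays was left out.

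Genes of the red cell path included 6 of the 15 largest falls. Of 19 measured 15 were lower in CDP and 1 higher, with a median of -1.762. Aqp1, a water channel gene, read 17.7 and 21.03 in CDP, against 1024 and 453 in CMP (difference -3.80 ± 0.353, adjusted p = 1.36e-05). Ermap, an erythroblast membrane protein gene, read 6.37 and 12.3 in CDP, against 908 and 414 in CMP (difference -3.97 ± 0.344, adjusted p = 7.56e-06), and the master factor gene Klf1 4.75 and 12.1 in CDP, against 403 and 186 in CMP (difference -2.93 ± 0.303, adjusted p = 3.23e-05). In all 3 the CDP arrays were near the background of the arrays and the first CMP array was the brighter of its pair. High levels were not particular to CMP: on the GMP arrays Aqp1 read 259 and 671, Ermap 204 and 526, and Klf1 108 and 250. There the second array was the brighter in all 3. Car1 averaged 1396 in GMP, against 1712 in CMP. Car2 read 112 and 151 in CDP, against 2812 and 2219 in CMP, Gata1 10.98 and 13.2 in CDP, against 131 and 67.95 in CMP, and Gfi1b 17.9 and 15.8 in CDP, against 274 and 153 in CMP. The summed intensity of the list was 2557 and 2762 in CDP, against 10909 and 7355 in CMP. Tfrc, the transferrin receptor gene, which all dividing cells use to take up iron, was the member higher in CDP, with 1948 and 2078 in CDP, against 1415 and 995 in CMP (difference 0.75 ± 0.129, adjusted p = 0.00164). Slc4a1 and Alas2, genes of the end of the path, were dim in both populations. Slc4a1 read 6.06 and 4.44 in CDP, against 7.07 and 8.39 in CMP. Alas2 read 6.10 and 5.74 in CDP, against 5.86 and 6.80 in CMP. The only probe set used for the globin gene Hba-a1 was listed at 1 on all 4 arrays. It read 1 and 5.42 in GMP and 1 on both pre-cDC arrays, so it does not tell whether globin mRNA was present. Probe sets annotated to several genes were left out, and the globin gene Hbb-b1 was not matched. The GATA letters AGATAA, or TTATCT, were in a promoter of 4 of 15 genes of the list, 26.7%, against 12.7% of all genes with a promoter. Among genes on the array with a promoter the share was 9.5%. These letters were found for 3 of 12 members lower in CDP, 0 of 1 higher and 1 of 2 not called.

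Of 16 heme synthesis and iron genes 9 were lower and 0 higher (median -0.485). Slc40a1, the iron exporter gene, read 8.33 and 6.04 in CDP, against 158 and 78.7 in CMP (difference -1.89 ± 0.193, adjusted p = 2.95e-05). The heme enzymes Urod, with 367 and 324 in CDP, against 731 and 597 in CMP, and Alad, with 190.1 and 181 in CDP, against 402 and 334 in CMP, were lower, with adjusted p of 0.000723 and 0.000919. Cpox read 65.3 and 29.03 in CDP, against 210.3 and 106 in CMP (difference -1.25 ± 0.235, adjusted p = 0.00294). Ferritin heavy chain, Fth1, was not called (-0.013).

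The 2 CMP arrays differed from each other in these genes. Of the 127 genes at least 2-fold lower in CDP, 29 (22.8%) were at least 1.5 times higher on the first CMP array than on the second, and 3 the other way round. Of the 190 genes at least 2-fold higher in CDP the numbers were 4 and 1, and of 8219 genes that were not called and brighter than the median they were 31 and 12. The red cell list kept 15 lower members without either CMP array, with a median of -1.347 without the first and -2.177 without the second. Kit, Gata2, Tal1, Angpt1 and Adgrl4 did not share the excess on the first CMP array. What part red cell precursors within the CMP sort have in the other falls was not tested.

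**Figure D4:**
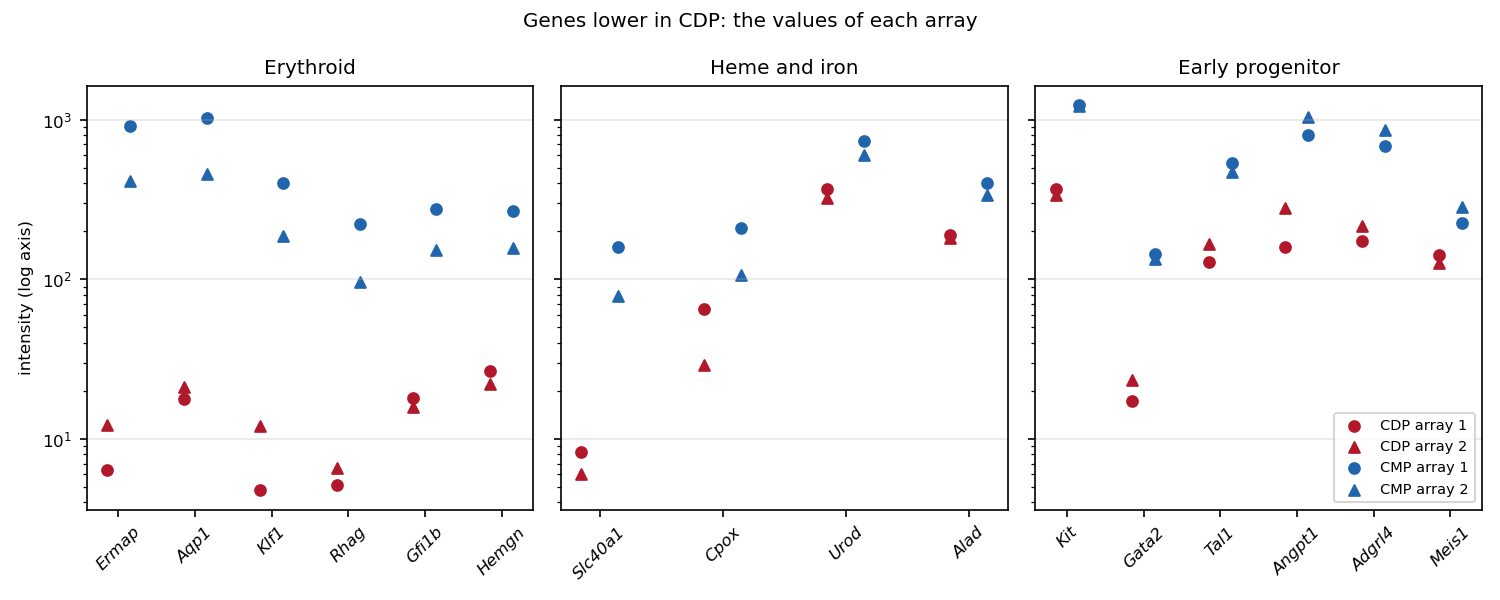
Intensity on a log axis of 16 genes lower in CDP, by array: red for CDP, blue for CMP, circles for the first and triangles for the second array of each. In the red cell panel and for Slc40a1 and Cpox the first CMP array lies well above the second; in the early progenitor panel the CMP arrays lie close together or in the other order.

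Of 17 megakaryocyte genes 5 were lower and 1 higher, with a median of -0.03, and 3 were lower without the second CDP array. Zfpm1, the gene of the GATA partner FOG-1, read 13.99 and 19.9 in CDP, against 112 and 66.1 in CMP (difference -1.28 ± 0.174, adjusted p = 0.000269), and Selp, the P-selectin gene, 10.9 and 13.9 in CDP, against 36.2 and 60.3 in CMP (difference -0.84 ± 0.118, adjusted p = 0.000361). Pf4, the platelet factor 4 gene, was called lower at low intensity, with 10.2 and 4.23 in CDP, against 26.2 and 21.3 in CMP (difference -0.51 ± 0.0918, adjusted p = 0.0021), and Gp9 (-0.027) and Vwf (0.15) were not called. Mef2c, a factor gene shared by megakaryocytes, lymphoid cells and dendritic progenitors, was the member higher in CDP, with 1851 and 2411 in CDP, against 1256 and 1333 in CMP (difference 0.69 ± 0.126, adjusted p = 0.00231). Of 13 mast cell, basophil and eosinophil genes, Cpa3 (difference -0.57 ± 0.164, adjusted p = 0.0333) and Mcpt8 (difference -0.64 ± 0.124, adjusted p = 0.00358) were lower. Cpa3 lost the call when any 1 of the 4 arrays was left out (adjusted p = 0.0825 to 0.205), while Mcpt8 kept it. Of 21 neutrophil granule genes 7 were lower and 2, S100a8 and S100a9, higher, with a median of -0.05. Elane, the neutrophil elastase gene, read 49.2 and 66.99 in CDP, against 132 and 118 in CMP (difference -0.81 ± 0.117, adjusted p = 0.000452), and Ms4a3 43.5 and 46.1 in CDP, against 107 and 117 in CMP (difference -0.90 ± 0.102, adjusted p = 6.58e-05). Mpo, the myeloperoxidase gene, stayed bright in both, at 4123 and 4962 in CDP, against 5397 and 5071 in CMP, and was not called (difference -0.21 ± 0.0932, adjusted p = 0.18). The late granule genes Ltf, with 12.9 and 7.49 in CDP, against 9.10 and 7 in CMP, and Ngp, with 63.9 and 72.03 in CDP, against 60.4 and 60.1 in CMP, were not called.

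Lymphoid genes gave mixed results. Of 14 lymphoid-primed genes 4 were higher and 3 lower, with 2 higher without the first CMP or the second CDP array. Notch1 read 876 and 979 in CDP, against 476 and 601 in CMP (difference 0.76 ± 0.12, adjusted p = 0.000882), and Il7r, given above, was higher as well. Dntt, the terminal transferase gene of early lymphoid cells, was bright and not called (-0.071), as was Satb1 (0.11). Tespa1 (difference -0.44 ± 0.12, adjusted p = 0.0275), Igll1 (difference -0.36 ± 0.105, adjusted p = 0.0371) and Lax1, at low intensity (difference -0.23 ± 0.0672, adjusted p = 0.0403) were lower. None of these was called without the second CMP or the first CDP array, and 1 without the second CDP array. Ighm was higher (difference 0.52 ± 0.137, adjusted p = 0.0209), a call lost without the first CMP or the second CDP array. Of 11 B cell genes 1 was called, Cd22, an inhibitory lectin gene, with 149 and 120.3 in CDP, against 6.73 and 6.78 in CMP (difference 2.10 ± 0.112, adjusted p = 1.72e-07). Cd79a read 4.47 and 3.91 in CDP, against 1.85 and 5.69 in CMP, and Ms4a1 5.94 and 7.16 in CDP, against 6.44 and 7.52 in CMP, so both defining markers were dim beside it. Of 15 T and NK cell genes Nkg7, a cytotoxic granule gene also expressed by granulocyte progenitors, was lower, with 122 and 149.7 in CDP, against 345 and 428 in CMP (difference -1.31 ± 0.127, adjusted p = 1.82e-05), and Cd3e (5.18 and 5.91 in CDP, against 12.4 and 4.05 in CMP) and Ncr1 (6.81 and 3.94 in CDP, against 4.89 and 7.16 in CMP) were dim. Thy1 (difference 0.27 ± 0.0745, adjusted p = 0.0256) and Cd5 (difference 0.23 ± 0.0705, adjusted p = 0.0425) were called higher at low intensity, and neither was called when any 1 of the 4 arrays was left out.

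Of 12 Bcl2 family genes 4 were higher and 0 lower. Pmaip1, which encodes the death-promoting NOXA, read 186 and 168 in CDP, against 44.2 and 42.7 in CMP (difference 1.47 ± 0.121, adjusted p = 5.56e-06), and Bid, also death-promoting, 988 and 955 in CDP, against 688 and 532 in CMP (difference 0.66 ± 0.124, adjusted p = 0.00301). The protective Bcl2 (difference 0.48 ± 0.0853, adjusted p = 0.00194) and Mcl1 (difference 0.36 ± 0.0846, adjusted p = 0.0121) were higher too, so called members lay on both sides, but Mcl1 lost the call without the second CDP array, the first CMP array or the second CMP array (adjusted p = 0.0592 to 0.0927) and after quantile normalization. Of 23 Notch and Wnt pathway genes 5 were higher and 2, Fzd6 (difference -0.49 ± 0.0952, adjusted p = 0.00364) and Fzd7 (difference -0.63 ± 0.135, adjusted p = 0.00634), lower; Fzd7 lost the call without the second CDP array or the first CMP array (adjusted p = 0.0502 and 0.0757). Hes6, a gene of a basic helix-loop-helix cofactor, read 1342 and 1453 in CDP, against 608 and 693 in CMP (difference 1.07 ± 0.0968, adjusted p = 1.11e-05), and Rbpj, the nuclear effector gene of Notch, 489 and 507 in CDP, against 317 and 318 in CMP (difference 0.60 ± 0.108, adjusted p = 0.0021). The Notch target genes Hes1 (-0.032) and Dtx1 (-0.014) were dim and not called.

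Of 23 immediate early genes, which also respond to handling of cells, 10 were higher and 2 lower, with a median of 0.296, and 6 were higher without the first CMP array. Fosb read 603 and 607 in CDP, against 229 and 267 in CMP (difference 1.19 ± 0.12, adjusted p = 2.71e-05) and Klf6 844 and 821 in CDP, against 315 and 433 in CMP (difference 1.10 ± 0.131, adjusted p = 9.68e-05). Ier3 (difference -1.01 ± 0.165, adjusted p = 0.00106) and Rgs1 (difference -0.92 ± 0.23, adjusted p = 0.0161) were lower, each with the second CMP array the brightest, and 1 of the 2 was called without the second CMP or the first CDP array. The summed intensity of this list was 22014 and 24285 in CDP, against 16044 and 18257 in CMP; its part in other rises was not tested. Of 16 heat shock chaperone genes 2, the mitochondrial Hspd1 (difference -0.38 ± 0.106, adjusted p = 0.0304) and Hspa9 (difference -0.41 ± 0.0941, adjusted p = 0.00955), were lower and 0 higher. The number lower was 5 after quantile normalization, 0 without the first or second CMP array or the first CDP array, and 1 without the second CDP array, while 2 were higher without the first CMP array and 1 without the second CDP array. Hspa1a, an inducible chaperone gene, read 942 and 394 in CDP, against 379 and 174 in CMP, with the arrays of each pair far apart, and was not called (difference 1.15 ± 0.393, adjusted p = 0.0745). Of 16 MAPK brake genes 1 was higher, Rgs10 (difference 0.65 ± 0.118, adjusted p = 0.00235), and 3 were lower, among them Spry2 (difference -0.39 ± 0.115, adjusted p = 0.0381) and Spred2 (difference -0.37 ± 0.108, adjusted p = 0.0379); without the second CMP array 4 were higher and 0 lower, without the first CDP array 0 were lower and without the second 1. Xist was bright on all 4 arrays, at 3868 and 4568 in CDP, against 3566 and 3942 in CMP, and the 3 Y-linked genes measured were dim.

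The levels in pre-cDC and GMP, from the same fit, place the members on a wider scale. The comparisons of pre-cDC with CDP and of CDP with CMP or GMP share the CDP arrays, so their values are given side by side only. Klf4 averaged 5397 in pre-cDC, 1340.5 in CDP, 131 in CMP and 245 in GMP. Irf8 averaged 5229 in pre-cDC, 4713 in CDP, 2033 in CMP and 1561 in GMP, with pre-cDC minus CDP 0.15, adjusted p = 0.163; CDP minus GMP 1.57, adjusted p = 9.23e-09. Mycl averaged 334 in pre-cDC, 206 in CDP, 21.995 in CMP and 5.24 in GMP, and Kit 36.5 in pre-cDC, 351 in CDP, 1219 in CMP and 995 in GMP. The order of the means was pre-cDC, CDP, CMP, GMP for Irf8 and Mycl, and CMP, GMP, CDP, pre-cDC for Kit.

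Several genes were highest in CDP among the 4 populations. Nfil3 averaged 10.1 in pre-cDC, 439.8 in CDP, 45.97 in CMP and 50.5 in GMP (pre-cDC minus CDP -3.49, adjusted p = 2.53e-10; CDP minus GMP 2.52, adjusted p = 4.62e-09). Id2 averaged 151 in pre-cDC, 465 in CDP, 44.2 in CMP and 35.6 in GMP (pre-cDC minus CDP -1.44, adjusted p = 8.25e-07; CDP minus GMP 2.87, adjusted p = 2.38e-09), and S1pr3, a sphingosine 1-phosphate receptor gene, 87.1 in pre-cDC, 691 in CDP, 270.4 in CMP and 237 in GMP (pre-cDC minus CDP -2.61, adjusted p = 1.16e-08; CDP minus GMP 1.43, adjusted p = 4.34e-06). Il7r averaged 29.2 in pre-cDC, 102 in CDP, 28.8 in CMP and 9.97 in GMP (pre-cDC minus CDP -1.13, adjusted p = 1.09e-06; CDP minus GMP 1.67, adjusted p = 4.56e-08). In all 4 genes the CDP arrays were above every array of the 3 other populations. The 4 genes were picked for being highest in CDP, so this and their small p-values are no independent result. Genes called lower in CDP had different levels further on: Gata2 averaged 10.5 in pre-cDC, 20.3 in CDP, 139 in CMP and 88.2 in GMP, and Myc 196 in pre-cDC, 797 in CDP, 1605 in CMP and 1097 in GMP.

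**Figure D5:**
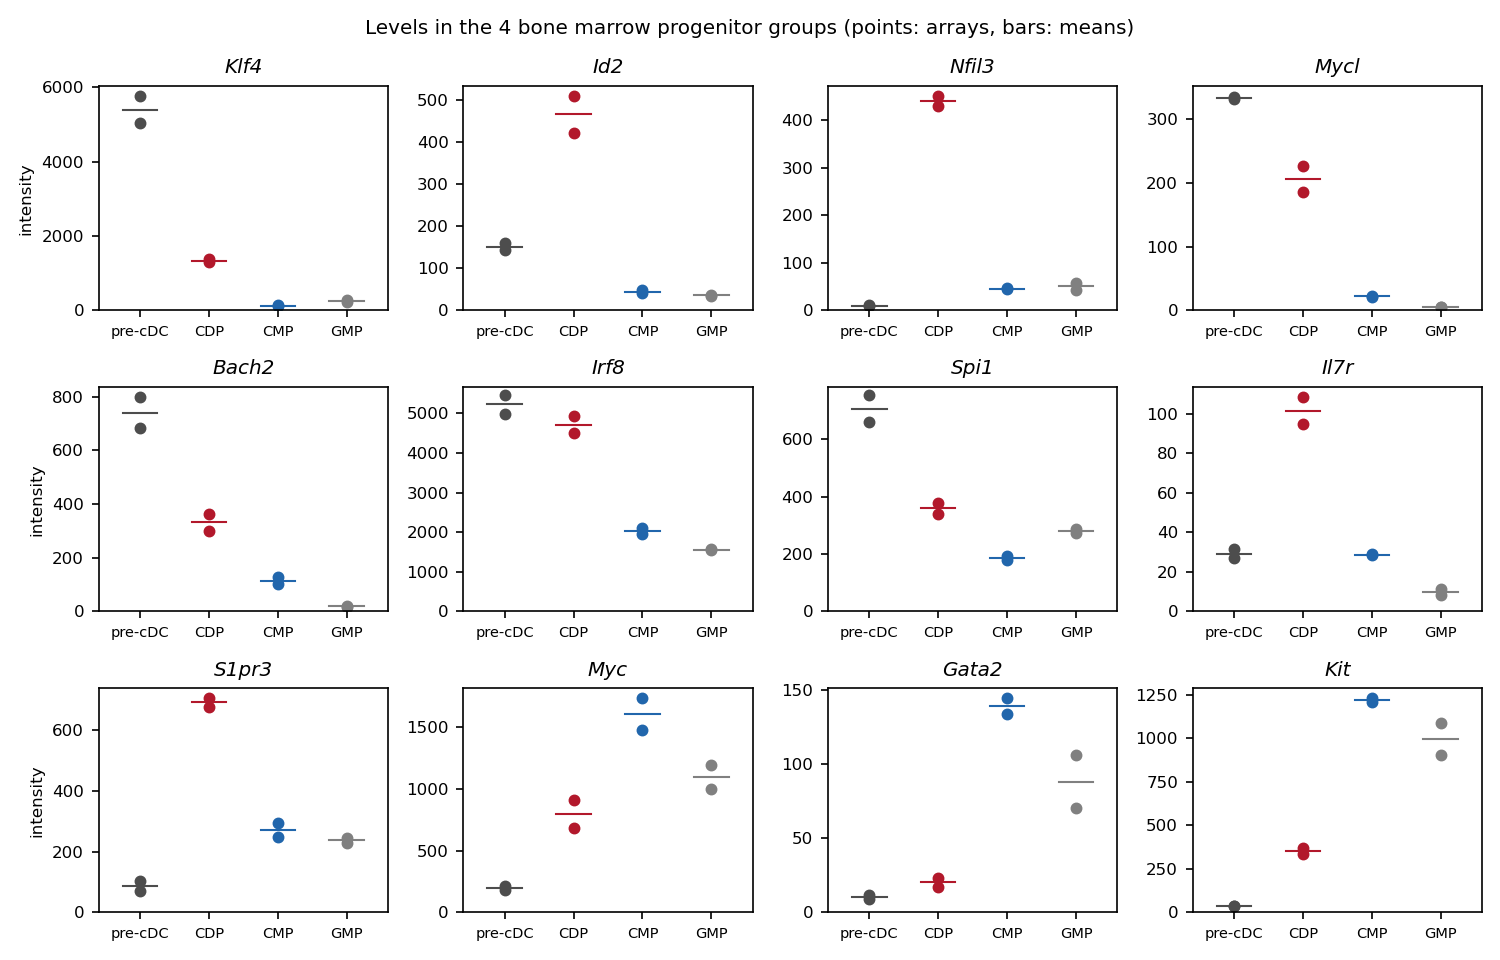
Intensity (linear axes starting at 0) of 12 genes in pre-cDC, CDP, CMP and GMP; points are the 2 arrays of a population and bars their mean. Id2, Nfil3, Il7r and S1pr3 are highest in CDP, Klf4, Mycl, Bach2 and Spi1 are highest in pre-cDC, and Myc, Gata2 and Kit are highest in CMP.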

How the data were processed

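Cells were sorted from mouse bone marrow and their RNA was labelled with the 3' IVT Express Kit, per the labels. The deposited values are linear array intensities, 1 per probe set and array, in the authors' series table; their background correction, summarisation and scaling are not given in the sources used here. All 8 progenitor arrays have medians of 15.95 to 17.44, and their number limits the precision.

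Of 45037 probe sets, 34945 had 1 gene in the platform annotation, 932 several and 9160 none; only the first were used. Where a gene had several, the probe set brightest on average across the 15 arrays stood for it (18193 genes, 9183 with 1 probe set; 18031 matched to current symbols by Entrez ID). On log2(intensity + 32), 1 limma fit (limma 3.58.1, R 4.3.3, data.table version 1.17.8; eBayes with trend; 4 residual and 12.6 moderated degrees of freedom) covered the 4 groups of progenitors, with the contrast CDP minus CMP tested two-sided and Benjamini-Hochberg adjustment over all genes at 0.05. A fold on this scale understates the change of dim genes. The fit was run on simulated data with independent noise of its own estimated size and known shifts. That checks the calculation and not how real arrays vary. Python 3.11.15, pandas 2.3.3 and matplotlib 3.10.9 were used for tables and figures. Alternatives were other added constants (1, 16, 64), quantile or median scaling, dim genes left out, the 4 arrays alone, a replicate block, other variance models, other choices of probe set and each array left out. Neither set tests nor resampling were run.

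The members and the 45 lists (884 symbols, 805 matched) were chosen with earlier results of these data known. The rule for naming took, of rises and of falls, the 15 largest in each direction without overlap of the arrays and with the higher mean above the median of 17.01, leaving out clones and unnamed models; up to 4 called members of a list by size, and members against its majority; a panel; the sort genes; and defining markers of other cells. The following were named outside the rule, after their values were seen: Adgre1, Alas2, Atf4, Bach2, Bcl6, Btla, Ccna2, Ccnd2, Ccr2, Ccr7, Cd14, Cdk1, Cdkn1a, Cdkn1b, Cdkn2c, Chac1, Ciita, Cish, Csf2ra, Csf2rb, Cst3, Ctsb, Ctss, Cxcr4, Ddx21, Dkc1, Dntt, Dpp4, Dtx1, Erg, F13a1, Fn1, Fth1, Gbp2, H2-DMa, H2-DMb2, H2-Eb2, H2-Oa, H2-Ob, Hes1, Hoxa9, Hspa1a, Ifit1, Ifitm2, Ifitm3, Ifnar1, Ifnar2, Irf5, Irf7, Irf9, Itga4, Itgal, Itgam, Klf2, Ldha, Ly6d, Ly86, Lyz2, Mcm10, Mcm6, Meis1, Mki67, Ms4a6c, Muc13, Myb, Ncl, Oasl2, Pgk1, Pkm, Rsad2, S1pr3, Satb1, Selplg, Slc4a1, Socs1, Socs2, Socs3, Sox4, Spib, Tal1, Tlr7, Tlr9, Top2a, Trib3, Xaf1 and Xist.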

Additional observations from a re-analysis of the deposited data

How the results depend on the processing

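The labels give the arrays of all groups the numbers 1 and 2 without saying what they share. Deviations of same-numbered arrays from their group means correlated across genes at -0.0222 to 0.181 (0.0665 for CDP with CMP), so the arrays were not treated as pairs; with the number as a replicate block the calls were 2948 in 8 arrays and 2126 in the 4 CDP and CMP arrays, against 2626 without it. The fit to the 4 CDP and CMP arrays alone gave 2072 calls, and other scalings, added constants, variance models and filters and the mean of a gene's probe sets gave 2457 to 2994. Testing every probe set on its own gave 3796 calls among 34945 probe sets, with 2117 higher. That is a smaller share than the 2626 among 18193 genes. With 1 array left out the lone array of its group is assumed to vary like the others: the calls were 1608 to 1934, those higher 841 to 1042 and those lower 711 to 892. Without the first CMP array 841 were higher and 767 lower, without the second 711 were lower, and without the second CDP array 806. Of 212 genes named by the rule, 196 were called, 137 of them kept the call in every setting, and 0 were reversed in any. Of the 196, 105 had several probe sets, and in 0 of these was another probe set called in the opposite direction. All probe sets were called in 44 of the 105. In the others at least 1 was not, as in Mycl, Ccnd3 and Anxa2, each with 1 of 3 called. Fcgr3 and Mpo passed the threshold, lower in CDP, in 6 and 2 other settings; the cause was not tested. Dim values depend on the added constant, and with 2 arrays a group the number of arrays limits what can be called.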
